A study of Homo sapiens with 12 samples.

Results

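GAS5, ZFAS1, SNHG1, SNHG5, SNHG6, SNHG7, SNHG8, SNHG12, SNHG15 and SNHG16 are long non-coding RNA genes that host small nucleolar RNAs (snoRNAs). They were chosen by gene symbol, with earlier results of these data known. All 10 had a row among the 18668 genes of the deposited expression table. All 10 also passed the filter on low counts that left 17702 genes for testing. RNA was sequenced from 22Rv1 cells, a cultured prostate carcinoma line used as a model of castration-resistant disease, after 24 h with a compound. The groups were a degrader (labelled 22Rv1_2024), enzalutamide, an autophagy-activating ligand (labelled 22Rv1_1021) and vehicle, with 3 libraries from independent replicates in each. All 4 groups share the same cell line, labelled wild type, and the same serum-containing medium, so the values describe a single line. The labels give no doses, so the compounds are compared without knowing how their doses relate. The degrader was compared with vehicle, and the ligand and enzalutamide served as control treatments.

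A snoRNA guides the chemical modification of ribosomal or spliceosomal RNA and is cut from the intron of a host transcript after splicing. C/D box snoRNAs guide ribose methylation, and H/ACA box snoRNAs guide the change of uridine to pseudouridine. Many hosts, GAS5 among them, begin with a 5′ terminal oligopyrimidine (TOP) tract, the start shared by mRNAs of ribosomal proteins and translation factors. Their spliced exons carry short reading frames, and when ribosomes enter these frames the RNA is removed by nonsense-mediated decay. The host RNA and its snoRNAs can therefore differ in level, because the snoRNA is protected in its protein complex and the exons are not.

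The starts of 8 host transcripts are shown because the TOP tract is the feature by which this family is known. The first 30 bases were read from the GRCh38 genome at GENCODE release 29 transcripts, and capitals mark the run of C and T that begins at a first-base C.
GAS5: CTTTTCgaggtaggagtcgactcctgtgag
ZFAS1: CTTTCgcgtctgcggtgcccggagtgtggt
SNHG5: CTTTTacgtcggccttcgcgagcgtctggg
SNHG1: CTCatttttctactgctcgtggtaagtggc
SNHG16: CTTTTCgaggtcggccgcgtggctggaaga
SNHG7: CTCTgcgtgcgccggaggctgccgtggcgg
SNHG8: CTTTCacattcgggaagcgtcgggattagg
SNHG12: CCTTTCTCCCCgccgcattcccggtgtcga

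These starts lie at chr1:173867960-173867989 on the minus strand for GAS5, chr20:49278642-49278671 on the plus strand for ZFAS1 and chr6:85678704-85678733 on the minus strand for SNHG5. SNHG1 starts at chr11:62855856-62855885 on the minus strand, SNHG16 at chr17:76557769-76557798 on the plus strand and SNHG7 at chr9:136728155-136728184 on the minus strand. SNHG8 starts at chr4:118278758-118278787 on the plus strand and SNHG12 at chr1:28581844-28581873 on the minus strand. For each gene the transcript with the longest run was taken among those that start near the RefSeq start, or among all transcripts for GAS5, so the choice favours such runs. SNHG6 and SNHG15, which had no RefSeq promoter entry, are named without a sequence. Their GENCODE transcripts were also left out of the count of starts that follows. Over all GENCODE transcripts of these 8 genes, 20 of 121 (16.5%) began with C and at least 4 further C or T. Among the starts shown, those of SNHG1 and SNHG7, with runs of 3 and 4 bases, fall short of this rule. The share was 20.9% of 791 transcripts of ribosomal protein genes and 2.63% of 135604 transcripts of all genes in the table. GAS5 and SNHG16 share their first letters, CTTTTCgaggt. In the counts below GAS5 rose with the degrader and SNHG16 did not pass the test, and a link between start and response was not tested.

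A promoter feature was also searched, by a rule chosen after the windows had been read. In RefSeq promoter windows (GRCh38.p14), the letters TATANAA occurred on the sense strand between 45 and 15 bases before the start in ZFAS1, SNHG5, SNHG7 and SNHG12, 4 of the 8 genes with a window. The same stretch held a match in 1.78% of 27305 windows. Windows of 45 bases before to 20 after the start are shown for a gene that rose with the degrader, ZFAS1 (chr20:49278597-49278661, plus strand), and for a gene that did not pass the test, SNHG12 (chr1:28581854-28581918, minus strand), with the match in capitals.
ZFAS1: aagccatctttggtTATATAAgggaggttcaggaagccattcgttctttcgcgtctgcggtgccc
SNHG12: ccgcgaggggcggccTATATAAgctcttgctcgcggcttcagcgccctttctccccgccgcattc

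The match starts 31 bases before the start in ZFAS1 and 30 bases before it in SNHG12, the distance at which TATA elements are usually found. Over the whole window and both strands, CACGTG, the core E-box, occurred in SNHG7 alone among the 8 genes and in 7.19% of all windows. TGATGNAA, a motif of composite ATF4 sites, occurred in 0 of the 8 and in 3.83% of all windows. The RefSeq window of GAS5 lies upstream of the GENCODE starts used here, so its lack of a match does not describe those starts.

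The 12 libraries held 55.5 to 77.2 M counted reads each, and the 10 hosts had 915 to 18590 reads in a library. Levels are given as counts per M reads (CPM, scaled by trimmed mean of M values), and length-scaled levels as the deposited FPKM. Tests are edgeR's quasi-likelihood test over all genes, with Benjamini-Hochberg adjusted p under 0.05 as the threshold. Because the RNA is from bulk cultures, fewer cells that hold a transcript and less of it per cell cannot be told apart. All 9 luminal prostate markers in a fixed list had rows, with a summed level of 2130 to 2270 CPM in degrader libraries, 2410 to 2550 CPM in enzalutamide libraries, 2510 to 2720 CPM in ligand libraries and 2630 to 2870 CPM in vehicle libraries. Of 11 markers of immune, endothelial, stromal and basal cells, CD68, COL1A1, DCN and ACTA2 had rows, and they summed to 18.7 to 21.4 CPM in degrader libraries, 21.5 to 24.7 CPM in enzalutamide libraries, 20.3 to 22.7 CPM in ligand libraries and 21.9 to 22.8 CPM in vehicle libraries. PTPRC, CD3E, PECAM1, VWF, COL1A2, KRT5 and TP63 were not analysed here. With the degrader against vehicle, 5 of 9 luminal markers and 1 of the 4 others, CD68, were lower and none was higher. Over all genes tested, 16.4% were lower and 16.4% higher in the same comparison. The luminal sum was thus lower in the libraries where several hosts were higher, and its part in the results was not tested.

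In vehicle cultures GAS5 had the highest length-scaled level of the family, 210.3 ± 4.47 FPKM (SD, n = 3). SNHG5 followed with 121 ± 3.23 FPKM and SNHG8 with 109 ± 10.96 FPKM, and the libraries of these neighbours overlapped. SNHG6 stood at 54.5 ± 3.70 FPKM, above SNHG7, ZFAS1 and SNHG1, which had 42.5, 41.3 and 41.0 FPKM and overlapped with each other. SNHG15, SNHG16 and SNHG12 came last with 29.1, 21.1 and 15.2 FPKM, each separated from the next. Among 1525 genes listed as long non-coding RNA, GAS5 ranked 2, SNHG5 ranked 3, SNHG8 ranked 5 and SNHG12, the lowest of the family, ranked 41 by vehicle FPKM. In degrader cultures the same 3 genes led, with 324 ± 25.9 FPKM for GAS5, 156 ± 10.6 FPKM for SNHG5 and 126 ± 7.29 FPKM for SNHG8. There ZFAS1, at 60.5 FPKM, overlapped with SNHG6, at 59.0 FPKM, and both lay above SNHG7, at 51.2 FPKM.

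**Figure D1:**
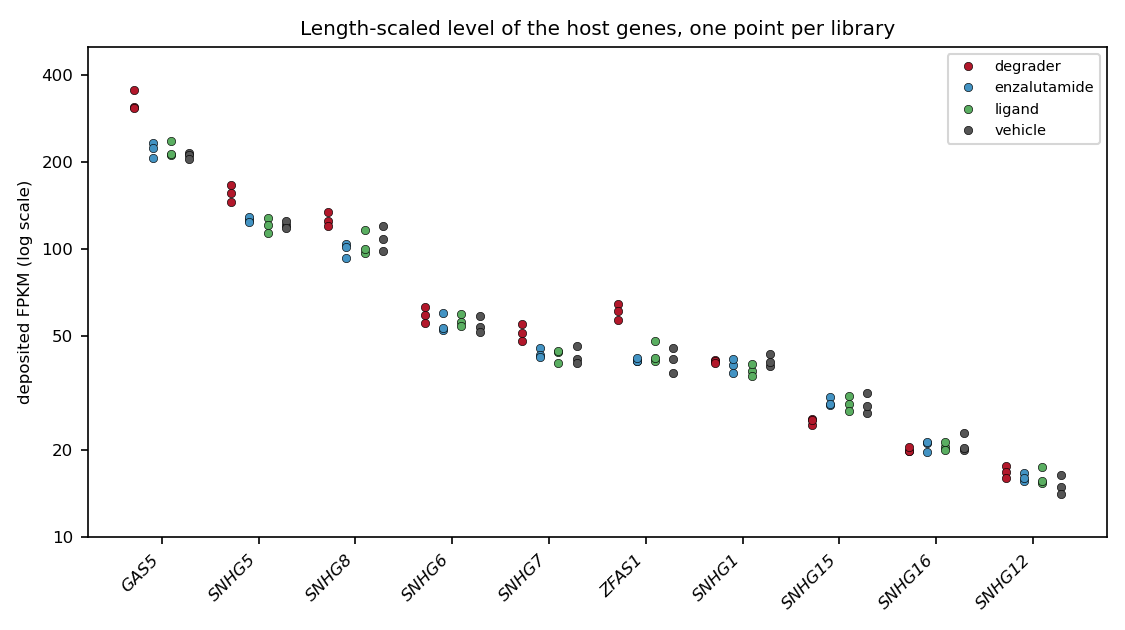
Deposited FPKM (log axis) of the 10 host genes in each of the 12 libraries, ordered by mean vehicle level, with degrader, enzalutamide, ligand and vehicle libraries from left to right. GAS5 averaged 324 FPKM in degrader libraries and 210.3 FPKM in vehicle libraries, and SNHG12 was the lowest gene in all groups.

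Against vehicle, the degrader raised GAS5, ZFAS1, SNHG5, SNHG8 and SNHG7 and lowered SNHG15, while SNHG6, SNHG12, SNHG1 and SNHG16 did not pass the test. Thus 5 of 10 hosts rose and 1 fell, beside 16.4% of all tested genes higher and 16.4% lower in the same comparison. Because the hosts were chosen with earlier results of these data known, these shares are descriptions and not a test of the family. Among the 1473 tested genes listed as long non-coding RNA, 15.1% were higher and 5.23% lower. Most of these lie below the hosts, which ranked 2 to 41 of 1525 by vehicle FPKM, so this share is not matched for level. The median log2 fold change of the 10 was 0.18, and that of all genes tested was 0.01. The summed level of the family was 707 ± 36.6 CPM in degrader cultures and 569 ± 21.1 CPM in vehicle cultures (SD, n = 3 each). GAS5 made up 31.3 ± 0.79% of that sum in degrader cultures and 25.2 ± 0.42% in vehicle cultures.

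**Figure D2:**
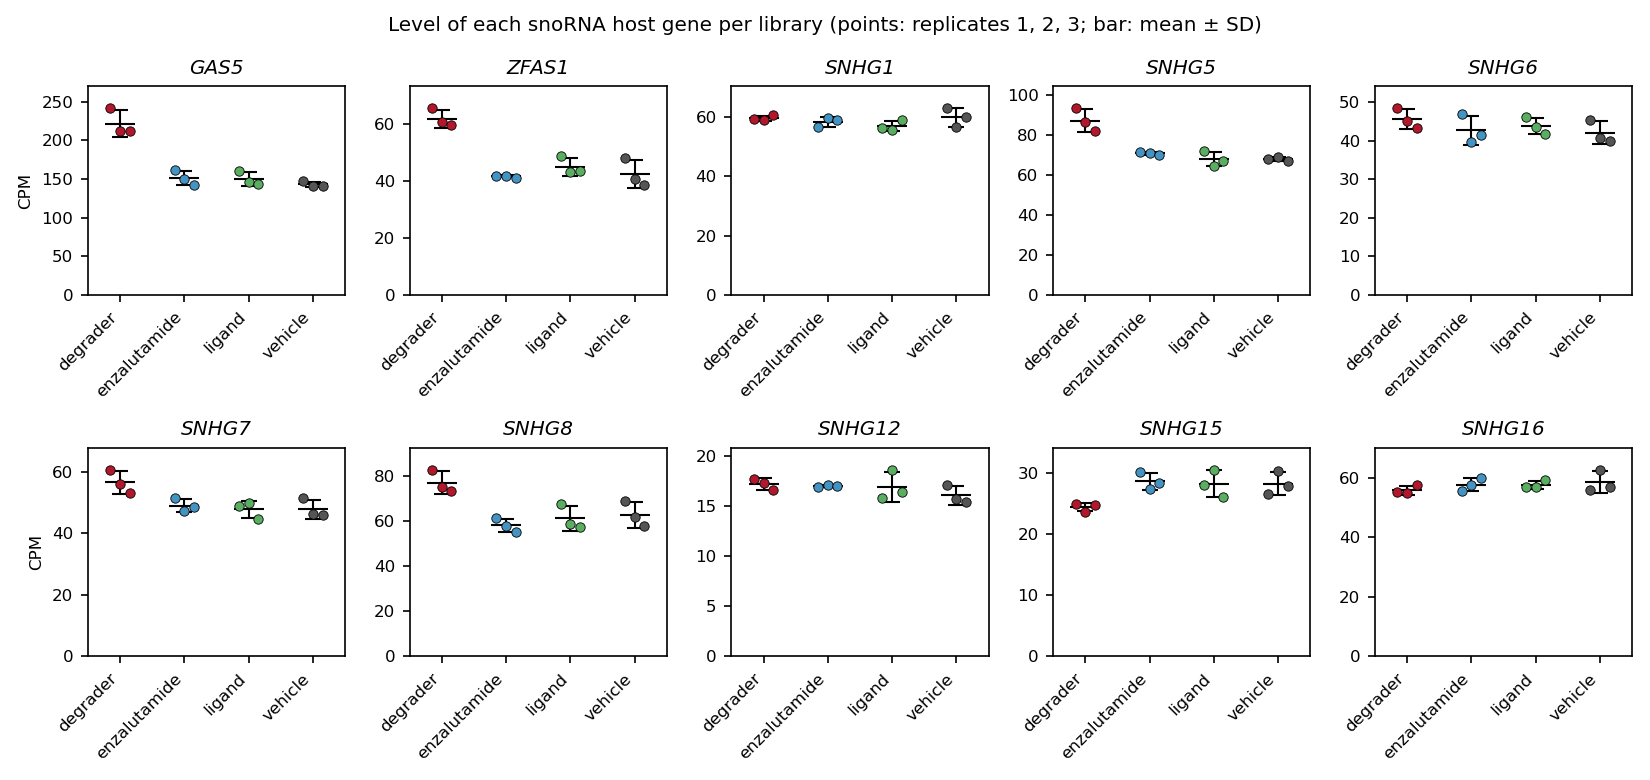
CPM (linear axes from 0) of each host gene in every library, with degrader, enzalutamide, ligand and vehicle groups from left to right, replicates 1, 2 and 3 as points and the mean ± SD as a bar. The 3 degrader libraries lie above all 9 others for GAS5, ZFAS1, SNHG5, SNHG7 and SNHG8, and below all 9 others for SNHG15.

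Among the hosts of C/D box snoRNAs, GAS5, whose introns hold a cluster of them, had 241, 212 and 212 CPM in degrader libraries, against 147, 141 and 141 CPM in vehicle libraries. All degrader libraries lay far above the vehicle libraries, and replicate 1 was the highest in each group. The log2 fold change was 0.63 (SE 0.06), a 1.55-fold rise with a 95% interval of 1.42 to 1.69 (edgeR adjusted p = 8.08e-07). ZFAS1, host of SNORD12, SNORD12B and SNORD12C, had 65.6, 60.9 and 59.6 CPM in degrader libraries, against 48.3, 40.9 and 38.5 CPM in vehicle libraries. The groups did not overlap, although vehicle replicate 1 was well above the other 2 vehicle libraries. ZFAS1 rose by 0.54 on the log2 scale (SE 0.07, edgeR adjusted p = 3.01e-05). SNHG5, host of SNORD50A and SNORD50B, had 93.5, 86.7 and 82.0 CPM in degrader libraries, against 68.2, 68.9 and 66.9 CPM in vehicle libraries. The vehicle libraries were close together and the degrader libraries were spread more widely above them. Its log2 fold change was 0.36 (SE 0.05, edgeR adjusted p = 7.37e-05).

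The other 3 C/D box hosts did not pass the test. SNHG6, host of SNORD87, had 43.2 to 48.4 CPM in degrader libraries and 40.0 to 45.5 CPM in vehicle libraries, and the ranges overlapped (log2 fold change 0.12, 95% interval -0.03 to 0.26). SNHG1, which carries SNORD22 and SNORD25 to SNORD31, had 59.0 to 60.6 CPM in degrader libraries and 56.8 to 62.9 CPM in vehicle libraries. Its log2 fold change was -0.01 with an interval of -0.11 to 0.10, which excludes a change as large as that of SNHG5. SNHG16, host of SNORD1A, SNORD1B and SNORD1C, had 54.8 to 57.4 CPM in degrader libraries and 55.8 to 62.6 CPM in vehicle libraries (log2 fold change -0.07, interval -0.18 to 0.04).

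Among the hosts of H/ACA box snoRNAs, SNHG8, which carries SNORA24, had 82.5, 74.8 and 73.1 CPM in degrader libraries, against 68.8, 61.5 and 57.7 CPM in vehicle libraries. The groups did not overlap, but the lowest degrader library was close to the highest vehicle library. SNHG8 rose by 0.29 on the log2 scale (SE 0.07, edgeR adjusted p = 0.00571). SNHG7, host of SNORA17A and SNORA17B, had 60.6, 56.0 and 53.2 CPM in degrader libraries, against 51.5, 46.2 and 45.9 CPM in vehicle libraries. Again every degrader library was higher than every vehicle library. Its log2 fold change was 0.24 (SE 0.06, edgeR adjusted p = 0.00789).

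SNHG15, host of SNORA9, went the other way, with 25.0, 23.7 and 24.8 CPM in degrader libraries, against 26.6, 30.3 and 27.9 CPM in vehicle libraries. The degrader libraries were close together and all lay below the vehicle libraries. The log2 fold change was -0.21 (SE 0.07, edgeR adjusted p = 0.0268). This call was lost without vehicle replicate 2 (adjusted p = 0.149), without degrader replicate 2 (0.108) and without degrader replicate 3 (0.0516), while the 5 rises kept their calls without any of the 12 libraries. SNHG12, which carries SNORA16A, SNORA44 and SNORA61 together with the C/D box SNORD99, had 16.6 to 17.8 CPM in degrader libraries and 15.4 to 17.1 CPM in vehicle libraries, with a log2 fold change of 0.10 (interval -0.05 to 0.25).

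Libraries of the 2 groups did not overlap for 5 hosts above and 1 below, the same 6 that passed the test, beside 23.1% of all genes above and 22.1% below. In the authors' deposited table, GAS5 had a signed fold of 1.542 (adjusted p = 4.31e-19) and SNHG15 a signed fold of -1.159 (adjusted p = 0.0125) for the degrader against vehicle. That table also had adjusted p under 0.05 for ZFAS1, SNHG5, SNHG8 and SNHG7, with folds of 1.451, 1.28, 1.221 and 1.178, beside 16.8% of its genes higher and 18% lower. Replicate 1 was the highest library for 8 of 10 hosts with the degrader, 7 with enzalutamide, 5 with the ligand and 7 with vehicle. With the first replicate of all groups left out, a setting chosen after seeing this, the same 6 hosts were called, with log2 fold changes of 0.59 for GAS5 and 0.32 for SNHG5.

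With enzalutamide, a drug in clinical use against prostate cancer, none of the 10 hosts passed the test against vehicle, beside 0.35% of all genes higher and 1.09% lower (edgeR, smallest adjusted p of a host 0.659). None had an unadjusted p under 0.05, and none was called by DESeq2 or limma-voom. GAS5 had 162, 149.7 and 143 CPM in enzalutamide libraries, against 147, 141 and 141 CPM in vehicle libraries, and the ranges overlapped. SNHG8 had 61.1, 57.6 and 55.1 CPM in enzalutamide libraries, against 68.8, 61.5 and 57.7 CPM in vehicle libraries. SNHG5 alone had no overlap, with 70.1 to 71.7 CPM in enzalutamide libraries and 66.9 to 68.9 CPM in vehicle libraries, beside 8.87% of all genes above and 8.19% below. Log2 fold changes ran from -0.11 for SNHG8 to 0.08 for GAS5, and the 95% intervals of all 10 lay between -0.27 and 0.23.

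With the ligand too, none of the 10 passed the test against vehicle, beside 0.203% of all genes higher and 0.0339% lower (edgeR, smallest adjusted p of a host 0.832). None had an unadjusted p under 0.05, and neither DESeq2 nor limma-voom called any. GAS5 had 160.4, 146 and 144 CPM in ligand libraries, against 147, 141 and 141 CPM in vehicle libraries. ZFAS1 had 48.8, 43.1 and 43.5 CPM in ligand libraries, against 48.3, 40.9 and 38.5 CPM in vehicle libraries, and replicate 1 was the highest in both groups. Log2 fold changes ran from -0.07 for SNHG1 to 0.08 for ZFAS1, with all intervals between -0.19 and 0.24. No host was without overlap between ligand and vehicle libraries, beside 5.61% of all genes above and 5.71% below. The upper bounds for GAS5 and ZFAS1 were 0.20 and 0.24, below the values of 0.63 and 0.54 seen with the degrader.

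Set directly against enzalutamide, the degrader gave the same split, with 5 hosts higher and 1 lower, beside 16.3% of all genes higher and 16.1% lower. GAS5 had 241, 212 and 212 CPM in degrader libraries, against 162, 149.7 and 143 CPM in enzalutamide libraries, with no overlap (log2 fold change 0.55, SE 0.06, edgeR adjusted p = 3.77e-06). ZFAS1 had 65.6, 60.9 and 59.6 CPM in degrader libraries, against 41.9, 41.9 and 41.3 CPM in enzalutamide libraries, where it varied little. No overlap was found for 5 hosts above and 1 below, beside 23.9% of all genes above and 22.5% below. The log2 fold change of ZFAS1 was 0.57, and those of SNHG8, SNHG5 and SNHG7 were 0.41, 0.30 and 0.21. SNHG15 had 23.7 to 25.0 CPM in degrader libraries and 27.3 to 30.2 CPM in enzalutamide libraries, a log2 fold change of -0.23 (edgeR adjusted p = 0.0165). The SNHG7 call (adjusted p = 0.0198) was lost without enzalutamide replicate 2 (0.0745), enzalutamide replicate 3 (0.0563) or degrader replicate 1 (0.096). The SNHG15 call was lost without enzalutamide replicate 1 (0.0832) or degrader replicate 2 (0.075).

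Against the ligand, the degrader again had 5 hosts higher and 1 lower, beside 14.3% of all genes higher and 14.2% lower. The log2 fold changes were 0.56 for GAS5, 0.46 for ZFAS1, 0.36 for SNHG5, 0.33 for SNHG8 and 0.24 for SNHG7 (edgeR adjusted p of 0.00947 or less). SNHG15 had 23.7 to 25.0 CPM in degrader libraries and 26.2 to 30.5 CPM in ligand libraries, a log2 fold change of -0.21 (edgeR adjusted p = 0.0294). That call was lost without ligand replicate 1 (0.0659), ligand replicate 2 (0.138), degrader replicate 2 (0.106) or degrader replicate 3 (0.0534), and the SNHG7 call was lost without degrader replicate 1 (0.051). SNHG1 had 59.0 to 60.6 CPM in degrader libraries and 55.6 to 59.0 CPM in ligand libraries, and did not pass the test (adjusted p = 0.348) although the libraries did not overlap. With it, 6 hosts lay above and 1 below without overlap, beside 20.1% of all genes above and 18.6% below. The 3 comparisons of the degrader share its 3 libraries, so their likeness is not independent.

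**Figure D3:**
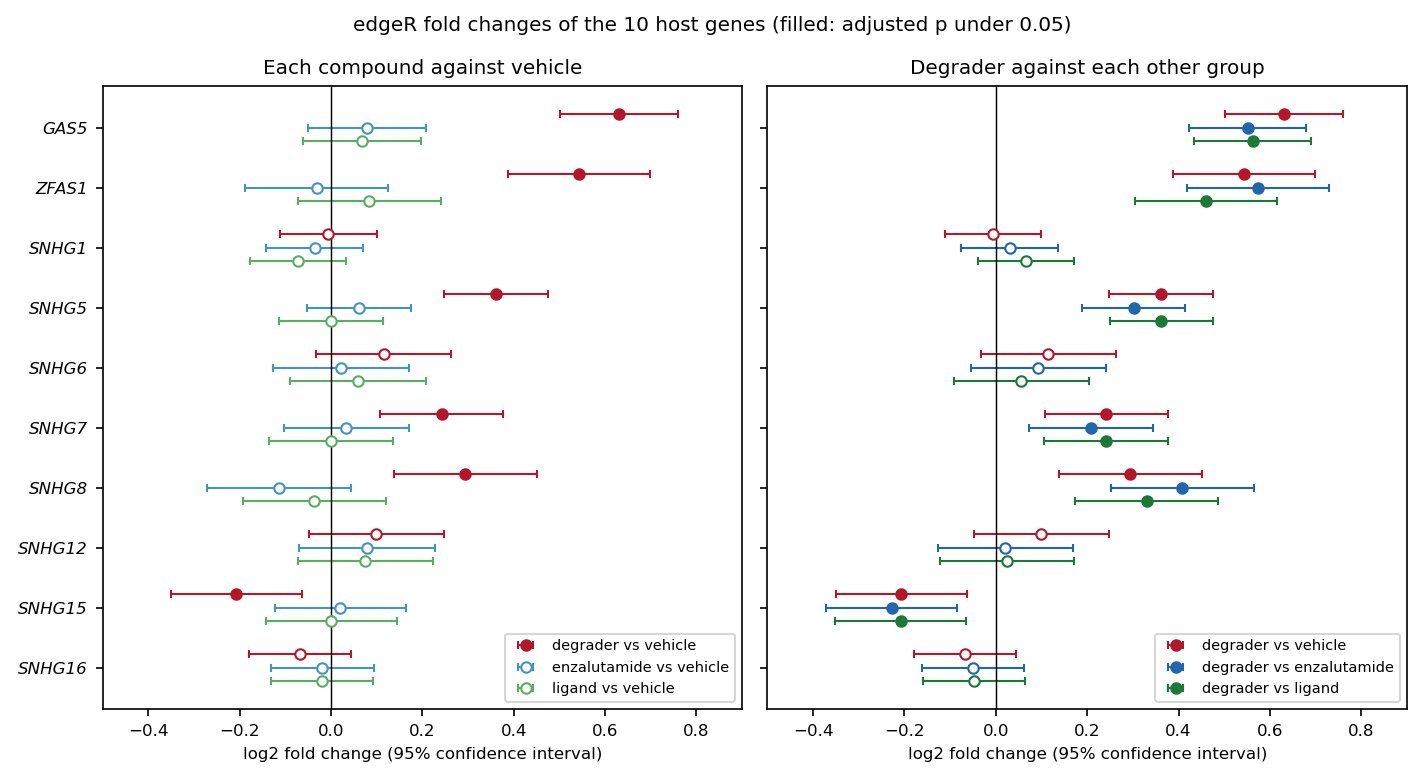
Log2 fold changes of the 10 host genes with 95% confidence intervals from edgeR, for each compound against vehicle (left) and for the degrader against vehicle, enzalutamide and ligand (right), with filled points where the adjusted p is under 0.05. GAS5 is farthest right for the degrader against vehicle at 0.63, SNHG15 lies at -0.21, and no enzalutamide or ligand point is filled in the left panel.

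No snoRNA within these introns passed the test. Of 35 snoRNA genes assigned to the 10 hosts, 33 had a row, 24 passed the filter, and 0 were called in any of the 5 comparisons. With the degrader against vehicle, 1 of the 24 had an unadjusted p under 0.05 (edgeR), beside 42.1% of all genes tested. In that comparison 16.4% of all genes were called higher and 16.4% lower. The summed level of the 33 snoRNAs was 15 ± 0.315 CPM in degrader cultures and 15.9 ± 0.295 CPM in vehicle cultures, or 903 to 1134 reads in a degrader library and 966 to 1148 in a vehicle library. The 24 tested had a median log2 fold change of -0.05 against vehicle. In the introns of GAS5, SNORD47, the most counted of all with a mean of 121 reads in a library, stood at 0.09 on the log2 scale (95% interval -0.20 to 0.39), and SNORD79 had 0.13 (-0.23 to 0.50). SNORA9, within SNHG15, had -0.47 (-0.89 to -0.05, edgeR adjusted p = 0.0844), and SNORD22, within SNHG1, had -0.32 (-0.67 to 0.04). The library kit selects polyadenylated RNA, which mature snoRNAs lack, so these counts do not measure mature snoRNA levels, and 9 of the 33 averaged under 10 reads. No gene had a deposited count below 1 in any library, so a count of 1 may be a floor and not a read. SNORD25, SNORA17A, SNORA17B and SNORA61 had a count of 1 in all 12 libraries.

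Of 21 other long non-coding snoRNA hosts in a list, 18 were tested with the degrader against vehicle, of which 3 (16.7%) were higher and 2 (11.1%) lower. These shares are near or below those of all genes tested, 16.4% higher and 16.4% lower, and the median log2 fold change was -0.004. EPB41L4A-AS1, host of SNORA13, averaged 27.0 ± 3.62 CPM in degrader cultures and 16.9 ± 1.296 CPM in vehicle cultures (SD, n = 3 each), a log2 fold change of 0.67 (edgeR adjusted p = 6.31e-05). SNHG32 averaged 153 ± 13.5 CPM in degrader cultures and 99.7 ± 5.83 CPM in vehicle cultures, with a log2 fold change of 0.62. SNHG29 was more abundant, at 684 ± 33.5 CPM in degrader cultures and 561 ± 34.4 CPM in vehicle cultures, and rose by 0.29 on the log2 scale. The rises of EPB41L4A-AS1 and SNHG32 were thus of the size of those of GAS5 and ZFAS1. SNHG10 averaged 8.33 CPM in degrader cultures and 10.3 CPM in vehicle cultures, with a log2 fold change of -0.31 (edgeR adjusted p = 0.00774). SNHG4 was lower by the test, at -0.24 (edgeR adjusted p = 0.0381). SNHG3 was lower with the degrader than with enzalutamide (-0.17, edgeR adjusted p = 0.0262) and than with the ligand (-0.15, 0.0454), and had -0.12 against vehicle (0.109).

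Of 36 protein-coding genes that host snoRNAs, 7 (19.4%) were higher and 9 (25%) lower, beside the same 16.4% and 16.4% of all genes, and the median log2 fold change was 0.07. NCL, which encodes nucleolin and hosts snoRNAs of both kinds, averaged 749 ± 10.2 CPM in degrader cultures and 1013 ± 40.4 CPM in vehicle cultures. Its log2 fold change was -0.44, close to those of NOP56 (-0.43), ATP5F1B (-0.43) and SF3B3 (-0.36). Those that rose were RPL4, RPL5, RPL10, RPL13A, EEF2 and RACK1, which take part in translation, and HSPA9, a mitochondrial chaperone. Among proteins that bind snoRNAs or assemble the snoRNA-protein particle, 10 of 18 (55.6%) were lower and 0 higher, beside 16.4% in each direction over all genes, with a median of -0.20. These included NOP56, a core C/D box protein, the assembly helicases RUVBL1 (-0.32) and RUVBL2 (-0.50), and NOLC1 (-0.26), a chaperone of the particle. RUVBL2 averaged 129 ± 7.12 CPM in degrader cultures and 182 ± 9.44 CPM in vehicle cultures. The 36 protein-coding hosts share 2 genes with this list, 4 with the TOP list below and 15 with the ribosomal protein list below. Results of these lists are therefore not independent.

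The decay pathway that removes spliced host RNAs was examined through its factors and its mRNA targets. Of 25 factors, 3 (12%) were higher and 6 (24%) lower with the degrader against vehicle, near the 16.4% of all genes in each direction, with a median log2 fold change of -0.06. UPF1, the central helicase of the pathway, had -0.24 (edgeR adjusted p = 0.0052). EIF4A3 (-0.31), MAGOHB (-0.29) and MAGOH (-0.27), parts of the exon junction complex, were lower, and the endonuclease SMG6 was higher (0.25). EIF4A3 averaged 94.4 ± 2.95 CPM in degrader cultures and 117 ± 2.75 CPM in vehicle cultures. Of 12 mRNAs known as decay targets, 7 (58.3%) were higher and 0 lower, with a median of 0.29. DDIT3 (1.64), CHAC1 (2.35), ATF4 (0.79) and ATF3 (0.95) had the smallest p. ATF4 averaged 624 ± 34.6 CPM in degrader cultures and 360 ± 14.9 CPM in vehicle cultures. These 4 genes also belong to the integrated stress response, in which ATF4 induces the others, and 4 of the 12 targets are themselves decay factors, so the list is not specific to decay.

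Of 19 TOP mRNAs for translation proteins outside the ribosome, 8 (42.1%) were higher and 1 (5.26%) lower, beside 16.4% of all genes in each direction, with a median log2 fold change of 0.13. EEF1A1, the elongation factor that delivers tRNA, averaged 8046 ± 401 CPM in degrader cultures and 6394 ± 279 CPM in vehicle cultures, and rose by 0.33 on the log2 scale. EIF3F (0.24), EIF4B (0.21) and PABPC1 (0.16) were also higher, and NPM1, a nucleolar chaperone, was lower (-0.19). Of 77 cytosolic ribosomal protein genes, 9 (11.7%) were higher and 1 (1.3%) lower, both below the 16.4% of all genes, with a median of 0.08. RPL10 (0.28), RPL37 (0.26), RPLP0 (0.23) and RPL4 (0.18) led by p, and RPS26 was lower (-0.19). Ribosomal protein genes have many processed pseudogenes, so their counts may be split between copies.

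**Figure D4:**
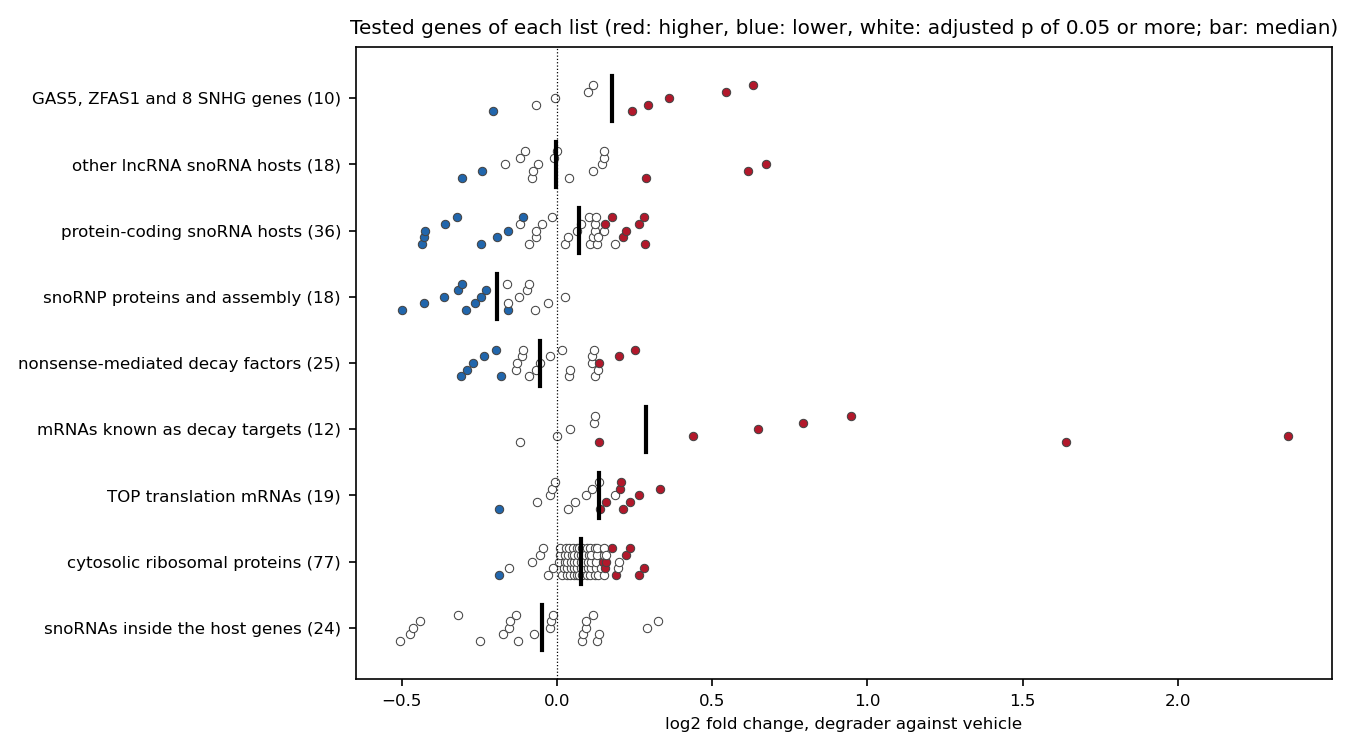
Log2 fold change for the degrader against vehicle of every tested gene in the host family and in 8 related lists, with red for higher, blue for lower and white for genes that did not pass the test, and the median as a black bar. Some lists share genes. The host family has a median of 0.18, the snoRNA-protein list lies left of 0 with 10 of 18 lower, and the snoRNAs within the hosts have no coloured point.

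With enzalutamide or the ligand against vehicle, these 8 lists held 1 call. UPP1, listed as a decay target, was higher with enzalutamide (log2 fold change 0.39, edgeR adjusted p = 0.0285). An unadjusted p under 0.05 was found with enzalutamide for 4 of 18 other long non-coding hosts and 0 of 77 ribosomal protein genes, beside 9.88% of all genes. With the ligand it was found for 2 of 18 and 0 of 77, beside 7.33% of all genes. The largest share of the 8 lists with the ligand was 3 of 12 decay targets, against 1 of 12 with enzalutamide. Those 3 were UPP1 (log2 fold change 0.32), DDIT3 (0.20) and GADD45A (0.20), and none passed the test (edgeR adjusted p of 0.215 or more).

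Several hosts overlap genes on the opposite strand, and the sources used here do not say whether counting used strand, although the library kit marks it. In the degrader against vehicle comparison none of the 7 tested opposite-strand neighbours was called. GAS5-AS1 averaged 1.15 CPM in degrader cultures and 1.22 CPM in vehicle cultures. ZBTB37, which overlaps GAS5, averaged 92.8 CPM in degrader cultures and 78.8 CPM in vehicle cultures (log2 fold change 0.24, edgeR adjusted p = 0.136). ZNFX1, which overlaps ZFAS1, averaged 40.8 CPM in degrader cultures and 42.8 CPM in vehicle cultures. The neighbours of SNHG6 and SNHG7, MCMDC2 (-0.37, adjusted p = 0.0608) and DIPK1B (-0.15, 0.147), had negative values while their partners had positive ones.

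Within groups the hosts varied little, with a median coefficient of variation over the 10 genes of 5.42% with the degrader, 3.98% with enzalutamide, 5.84% with the ligand and 6.38% with vehicle. After the group means were removed, Pearson r over the 12 libraries for the 45 pairs of hosts ran from -0.85 (SNHG1 and SNHG15) to 0.92 (ZFAS1 and SNHG8) and was below 0 for 16 pairs, with the libraries and their depth shared by both genes. Genes outside the family whose log2 CPM most followed the mean standardised level of the 10 hosts over the 12 libraries were PHF1 (r = 0.97), RAB43P1 (0.97), RPL10 (0.96), VAT1 (0.96) and NAT9 (0.96). These r values are descriptions, and they are carried in part by the degrader libraries, which stand above the others for all 5 genes. PHF1, a chromatin protein, averaged 62.8 ± 4.74 CPM in degrader cultures and 45.6 ± 3.57 CPM in vehicle cultures. RAB43P1 is a pseudogene whose reads may be shared with its parent gene.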

How the data were processed

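HISAT2, StringTie and the GRCh37 build are named in the submitters' processing notes, and versions are not given in the sources used here. The authors deposited a table with a whole-number read count and an FPKM value per gene and library, per the file headers. The same table holds a deposited score, the authors' signed linear fold change, and a deposited Benjamini-Hochberg adjusted p-value, whose test is not named. Counts were tested with edgeR 4.0.16 in R 4.3.3: filterByExpr (minimum count 10, minimum total 15) kept 17702 of 18668 genes. TMM factors ran from 0.987 to 1.016. A robust quasi-likelihood model of group was fitted to all 12 libraries (8 residual degrees of freedom). P-values measure spread between libraries, whose chi-square per degree of freedom within groups was 5.49 to 22.4, so replicate spread exceeded counting error across the table as a whole. Counting error is a large part of the error for the few reads of the snoRNAs. The code was tested on simulated data. Alternatives used DESeq2 1.42.0 and limma 3.58.1.

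Members, lists (238 symbols in 10 lists) and tests were chosen with earlier results of these data known. Genes named are the 10 members, the snoRNAs within them, up to 4 genes with the smallest p per list, other hosts called anywhere, and the 5 genes most like the members. Further genes, chiefly called list members, their neighbours and UPF1, were named after their values were seen. Gene structures and sequences come from GENCODE 29 and RefSeq (8 of 10 members matched a promoter), while counts were made on GRCh37, so sequences are shown by gene only.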

Additional observations from a re-analysis of the deposited data

How the results depend on the processing

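The number of hosts called stayed at 6 for the degrader against vehicle under DESeq2, limma-voom, relative log expression scaling, no or a stricter filter, and only the libraries compared, and was 5 to 6 leaving out each library. Against enzalutamide it was 5 to 6 and against the ligand 5 to 6 leaving out each library, and 4 in each with the first replicates left out, where SNHG7 (adjusted p = 0.0625 and 0.0575) and SNHG15 (0.111 and 0.0771) were lost. With only the 6 libraries of degrader and ligand, SNHG15 was lost (0.0502). For enzalutamide and for the ligand against vehicle, 0 hosts were called under every alternative run.

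The design names no pairing by replicate number, so the main model had no replicate block. After group means were removed, same-numbered libraries had correlations of -0.03 to 0.21 over 18 pairs, with 7 pairs over 0.1. Of the 12 libraries, 7 correlated best with their own number in every other group. This is a hint of pairing from the data and not the design, and whether the numbers mark pairs was not tested. With a replicate block the hosts called were 7, 6 and 6 for the degrader against vehicle, enzalutamide and ligand, SNHG6 being added against vehicle (adjusted p = 0.0462), and 0 for the other 2 comparisons.

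Counts over all genes were 5795 for the degrader against vehicle (4580 to 6182 leaving out each library, 7265 with the block), 5726 against enzalutamide (4531 to 6187, 7221) and 5049 against the ligand (3781 to 5408, 6559). For enzalutamide against vehicle the count was 255, and 388 with DESeq2, 553 with the block, 136 without first replicates and 173 to 306 leaving out each library. For the ligand it was 42, and 120 with DESeq2, 25 with only 6 libraries, 191 with the block, 23 without first replicates and 21 to 77 leaving out each library. The cause was not tested.

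Signs turned only for log2 fold changes that passed no test. Without first replicates these were 0.0397 for SNHG1 (degrader against vehicle), 0.0665, 0.0251 and -0.0606 for ZFAS1, SNHG1 and SNHG15 (enzalutamide), -0.0303 for SNHG15 (ligand), and -0.00281 and -0.0477 for SNHG12 (degrader against enzalutamide and ligand). SNHG5 with the ligand turned to 0.00137 with DESeq2 and with relative log expression scaling, 0.00169 without a filter and 0.00489 with only 6 libraries. Leaving out each library, SNHG1 ranged from -0.0397 to 0.0324 (degrader against vehicle) and SNHG12 from -0.00173 to 0.0444 against enzalutamide and -0.0234 to 0.0996 against the ligand. With enzalutamide against vehicle, ranges that crossed 0 leaving out each library were -0.0976 to 0.0698 for ZFAS1, -0.0711 to 0.00201 for SNHG1, -0.0495 to 0.0828 for SNHG6, -0.000748 to 0.09 for SNHG7, -0.022 to 0.0742 for SNHG15 and -0.0517 to 0.0344 for SNHG16. With the ligand they were -0.0429 to 0.0335 for SNHG5, -0.0311 to 0.0565 for SNHG7, -0.112 to 0.0367 for SNHG8, -0.0585 to 0.0603 for SNHG15 and -0.0533 to 0.0382 for SNHG16.

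Fold ratios from FPKM differed from those from CPM by less than replicate spread for all hosts. The 3 libraries per group and unknown doses limit what small changes can be seen.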
